A study of Rattus norvegicus with 10 samples.

Results

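The let-7 and miR-98 family comprises short regulatory RNAs that share 1 seed, the bases 2 to 8 through which a microRNA (miRNA) recognises its target mRNAs. The members described here were the 8 mature 5p strands rno-let-7a-5p, rno-let-7b-5p, rno-let-7c-5p, rno-let-7d-5p, rno-let-7e-5p, rno-let-7f-5p, rno-let-7i-5p and rno-miR-98-5p (written below without the rat prefix), found by name among the 761 miRNA probes of a rat array. They were taken from a list of names made with earlier results of these data known, and the rule itself used no measured value. Each probe was present as 1 spot, and all 8 members were detected on all 10 arrays.

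The RNA was taken from the hearts (left ventricle) of Wistar rats, all male and weighing 250 to 350 g. The control group received a saline infusion, and the DEX group received dexmedetomidine (DEX), a sedative drug acting through alpha2 adrenergic receptors, for 30 min. Each group held 5 arrays, numbered 1 to 5, and no genetic change or other agent is named in the labels. The comparison asks which miRNAs differ in the heart after the infusion.

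let-7 miRNAs are abundant in differentiated tissues, including adult heart muscle, and scarce in early embryonic cells, where the protein LIN28 blocks the processing of their precursors. They bind sites in mRNAs such as those of RAS genes, Myc and Hmga2 and lower the output of those mRNAs, which has made them known as brakes on growth and on the embryonic programme. The genes of the family are spread over several chromosomes, and many lie in clusters with one another or with miR-99, miR-100 and miR-125 miRNAs.

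The mature sequences are shown because they define the family and show how little its members differ outside the seed. They were taken from RefSeq (build GRCr8), which held all 8 members. The capitals mark bases 2 to 8. The last line is let-7g-5p, which carries the same seed and was on the array but is not one of the 8 named members.
let-7a-5p: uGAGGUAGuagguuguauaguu
let-7b-5p: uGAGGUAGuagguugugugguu
let-7c-5p: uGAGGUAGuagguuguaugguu
let-7d-5p: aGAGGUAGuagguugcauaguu
let-7e-5p: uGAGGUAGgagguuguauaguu
let-7f-5p: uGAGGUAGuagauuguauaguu
let-7i-5p: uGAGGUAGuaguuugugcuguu
miR-98-5p: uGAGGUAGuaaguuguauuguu
let-7g-5p: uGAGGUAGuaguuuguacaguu

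All 9 sequences were 22 bases long, and they were the only 9 of the 693 mature rat miRNAs in the RefSeq table with the bases GAGGUAG at positions 2 to 8. Positions are counted from 1 at the 5′ end, and each change below gives the base of let-7a-5p first. let-7c-5p differed from let-7a-5p only by A19G, let-7e-5p only by U9G and let-7f-5p only by G12A. let-7b-5p carried A17G and A19G, let-7d-5p carried U1A and U16C, and miR-98-5p carried G11A and A19U. let-7i-5p was the most distant of the 8 from let-7a-5p, with G12U, A17G, U18C and A19U, and let-7g-5p carried G12U and U18C. An array probe that captures one member may also hold a neighbour that differs by 1 base. This was not tested.

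RefSeq placed the 8 members at 11 genes on 6 chromosomes of GRCr8. On chromosome 17, let-7a-5p (chr17:16320145-16320166), let-7f-5p (chr17:16320508-16320529) and let-7d-5p (chr17:16322273-16322294) lay within 2128 bases, start to start, inside the span of the long non-coding RNA gene LOC120097935. On chromosome 7, let-7c-5p (chr7:118683636-118683657) and let-7b-5p (chr7:118684044-118684065) lay 408 bases apart, and let-7i-5p lay alone on the minus strand (chr7:60527935-60527956), inside the span of LOC134479799. On chromosome X, a second let-7f-5p (chrX:24460052-24460073) and miR-98-5p (chrX:24460663-24460684) lay 611 bases apart inside the span of Huwe1, which encodes a ubiquitin ligase. let-7e-5p (chr1:67350243-67350264) lay inside the span of Spaca6 between miR-99b and miR-125a. A second let-7a-5p (chr8:50805219-50805240) lay with miR-100 and miR-125b-1, and a second let-7c-5p (chr11:29688127-29688148) lay with miR-99a and miR-125b-2. A mature strand made from more than 1 gene gives 1 value on the array, so let-7a-5p, let-7c-5p and let-7f-5p could not be assigned to either of their genes. Whether the spans above cover the miRNA in an exon or an intron was not analysed here.

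The values below are normalised signals. The mean of the blank spots was subtracted from each spot, and the median of the detected miRNAs was set to 25 on each array. Probes differ in affinity, so a difference in level between probes says nothing about the amounts of their RNAs, and only changes between arrays are compared. The arrays detected 483 to 533 miRNAs. DEX 1 was the dimmest array, with a median signal over blank of 17.3 against 35.4 to 53.5 on the others. Control 1 to Control 4 were on slide 1, Control 5 and DEX 1 to DEX 3 on slide 2, and DEX 4 and DEX 5 on slide 3, so slide and group were largely entangled. All 6 heart muscle markers (such as miR-1-3p and miR-208a-3p) were detected on every array, and so were all 7 blood cell markers. The summed signal of the blood markers ran from 1352 to 1829 in the control group and from 1181 to 2031 in the DEX group. Of the red cell markers, miR-451-5p and miR-144-3p differed by -0.59 and -0.75 (log2, DEX minus control). Of the leukocyte markers, miR-223-3p, miR-142-3p and miR-150-5p differed by 0.34, 0.29 and 0.21. This sorting of the markers was made with the differences already known. The rest of the blood list was miR-486, also a red cell miRNA, at 0.019 and miR-142-5p, also a leukocyte miRNA, at 0.13. So miR-486 did not share the negative sign of miR-451-5p and miR-144-3p. Of the 7 blood markers, 0 passed an adjusted or unadjusted p of 0.05, where 0% and 2.98% of all tested miRNAs did. In whole tissue, a lower signal from fewer cells of a type and one from less RNA per cell cannot be told apart.

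No difference between the groups was detected for any member, and the DEX values of each member overlapped the control values. The differences of the 8 members ran from 0.006 to 0.17 on the log2 scale (DEX minus control), with a median of 0.0998, beside a median of 0.044 over the 503 miRNAs detected on at least 5 arrays. In limma fitted over those 503, 0 of 8 members passed an adjusted p of 0.05, where 0% of all tested miRNAs did, and 0 of 8 passed at an unadjusted p of 0.05, where 2.98% of all did. Groups that did not overlap were seen for 0 of 8 members and for 0.596% of all tested miRNAs. By the methods' t-test (1.5-fold or more at p under 0.05), 0 of 8 members were called, where 1.59% of all were. It was run on the log2 values scaled as above and not on the authors' linear scores, so its calls need not match theirs.

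**Figure D1:**
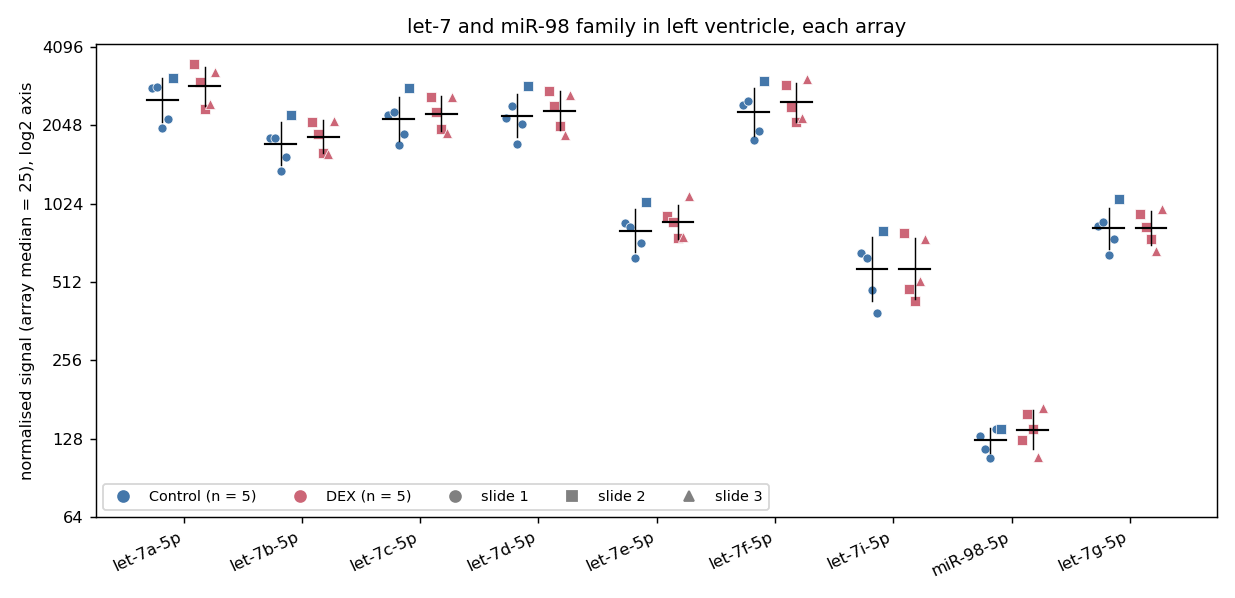
Normalised signal of the 8 members and let-7g-5p (log2 axis, array median of 25) on each array, with control arrays in blue, DEX arrays in red and slides by marker shape. Bars give the mean of log2 values ± SD (n = 5 a group). The groups overlap for every miRNA shown. let-7i-5p has the widest spread within groups.

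let-7a-5p, the reference sequence of the family, gave signals of 2842, 2858, 2002, 2162 and 3113 on Control 1 to Control 5. On DEX 1 to DEX 5 they were 3528, 2987, 2352, 2479 and 3267. The highest array was DEX 1 and the lowest Control 3, and 3 of the 5 control arrays lay above the lowest pair of DEX arrays. The means were 2595 ± 484 (SD, n = 5) in the control group vs. 2923 ± 503 in the DEX group. The log2 difference was 0.17 (95% interval -0.20 to 0.55, adjusted p = 0.905 by limma), the largest of the 8. Without DEX 1 it was 0.10, below the 0.17 of miR-98-5p.

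let-7f-5p, which shares a cluster with let-7a and let-7d, gave 2445, 2525, 1796, 1938 and 3040 on the control arrays and 2930, 2415, 2098, 2182 and 3077 on the DEX arrays. Control 3 was again lowest, and Control 5 and DEX 5 were the highest and nearly level. Its log2 difference was 0.12 (95% interval -0.27 to 0.51, adjusted p = 0.914 by limma). let-7d-5p, the remaining miRNA of that cluster, gave 2172, 2437, 1735, 2076 and 2894 on the control arrays and 2780, 2435, 2039, 1871 and 2666 on the DEX arrays. The highest value was in the control group here, on Control 5, and the log2 difference was 0.064 (95% interval -0.31 to 0.44, adjusted p = 0.933 by limma).

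let-7b-5p and let-7c-5p, which differ by 1 base and share a cluster, had nearly the same profile. let-7b-5p gave 1825, 1828, 1361, 1543 and 2248 on the control arrays and 2109, 1898, 1594, 1588 and 2133 on the DEX arrays. let-7c-5p gave 2232, 2305, 1711, 1890 and 2846 on the control arrays and 2635, 2296, 1971, 1903 and 2634 on the DEX arrays. Both were highest on Control 5 and lowest on Control 3, with all DEX arrays in between. The log2 differences were 0.091 (95% interval -0.27 to 0.45) for let-7b-5p and 0.067 (95% interval -0.30 to 0.43) for let-7c-5p.

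let-7e-5p, the member clustered with miR-99b and miR-125a, gave 864, 830, 632, 724 and 1036 on the control arrays and 913, 866, 754, 760 and 1091 on the DEX arrays. DEX 5 and Control 5 were the highest pair. The means were 817 ± 153 (SD, n = 5) vs. 877 ± 138, a log2 difference of 0.11 (95% interval -0.25 to 0.47, adjusted p = 0.914 by limma).

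let-7i-5p, whose gene lay apart from the other listed miRNAs, was the most variable. It gave 661, 630, 477, 389 and 802 on the control arrays and 789, 479, 433, 514 and 751 on the DEX arrays. Each group held both high and low arrays, and the group means were 592 ± 162 (SD, n = 5) vs. 593 ± 164. The SD within groups was 0.40 on the log2 scale, beside 0.21 to 0.28 for the other 7 members. The log2 difference was 0.006, and its 95% interval of -0.49 to 0.51 was the widest of the family.

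miR-98-5p, which lies with let-7f on chromosome X, gave 131, 117, 108, 139 and 139 on the control arrays and 127, 159, 140, 109 and 167 on the DEX arrays. It did not follow the order of the other members: DEX 2 and DEX 5 were highest, and Control 4 lay level with Control 5 at the top of its group, where each other member was lowest or second lowest on Control 4. The log2 difference was 0.14 (95% interval -0.19 to 0.47, adjusted p = 0.905 by limma). let-7g-5p, the other carrier of the seed, gave 837, 867, 651, 749 and 1063 on the control arrays and 933, 832, 750, 672 and 973 on the DEX arrays. Its means of 833 ± 154 (SD, n = 5) vs. 832 ± 125 gave a log2 difference of 0.00375 (95% interval -0.35 to 0.36).

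Expressed as ratios, the 95% intervals of the 8 members lay between 0.71 (the lower bound of let-7i-5p) and 1.47 (the upper bound of let-7a-5p). Most were narrower, such as 0.874 to 1.38 for miR-98-5p. These intervals are from the fit without slide. With slide as a fixed term the standard errors of the members were 0.29 to 0.41, against 0.15 to 0.23 without it. Intervals that allow for slide are therefore wider and lie around other values. The smallest p of a two-sided exact permutation test among the members was 0.325, for a design whose smallest possible p is 0.00794. All 8 differences were above 0, as were 59.2% of all 503. Their direction depended on the scaling. The number of members higher in the DEX group was 0 of 8 with no scaling between arrays (14.7% of all tested). It was 3 of 8 with the 75th percentile of detected miRNAs set equal (34%) and 5 of 8 with quantile normalization (52.1%). It was 8 of 8 when the spike control spots were set equal (66.8%) and with the authors' scores (61.4%). The same 8 of 8 came with the median of all miRNA spots (62.6%) or of those detected on every array (61.8%) set equal. The median of all 503 fell to -0.16 with no scaling and rose to 0.11 with spike control scaling. A factor per array moves every miRNA alike, so the family median lies 0.056 above that of all miRNAs under each such scaling by construction. This gap was 0.060 with the authors' scores and -0.10 with slide as a fixed term.

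The slide also moved with the direction. On slide 2, the only slide with both groups, Control 5 was compared with DEX 1 to DEX 3, and 1 of 8 members was higher in the DEX group, as were 24.9% of all tested miRNAs. The differences on that slide were -0.094 for let-7a-5p, -0.28 for let-7b-5p, -0.32 for let-7c-5p, -0.27 for let-7d-5p, -0.30 for let-7e-5p, -0.31 for let-7f-5p, -0.55 for let-7i-5p and 0.024 for miR-98-5p, with a median of -0.19 over all 503 miRNAs. These rest on 1 control array, which gave the highest control signal for each member. With slide as a fixed term the same values came out, and no member passed (smallest adjusted p = 0.897 by limma). Without slide 3, on which probe-free spots read 28.8 and 37.7 over blank against 10.2 or less on the other arrays, 7 of 8 members and 49.5% of all tested miRNAs were higher in the DEX group, with medians of 0.094 and -0.0033.

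**Figure D2:**
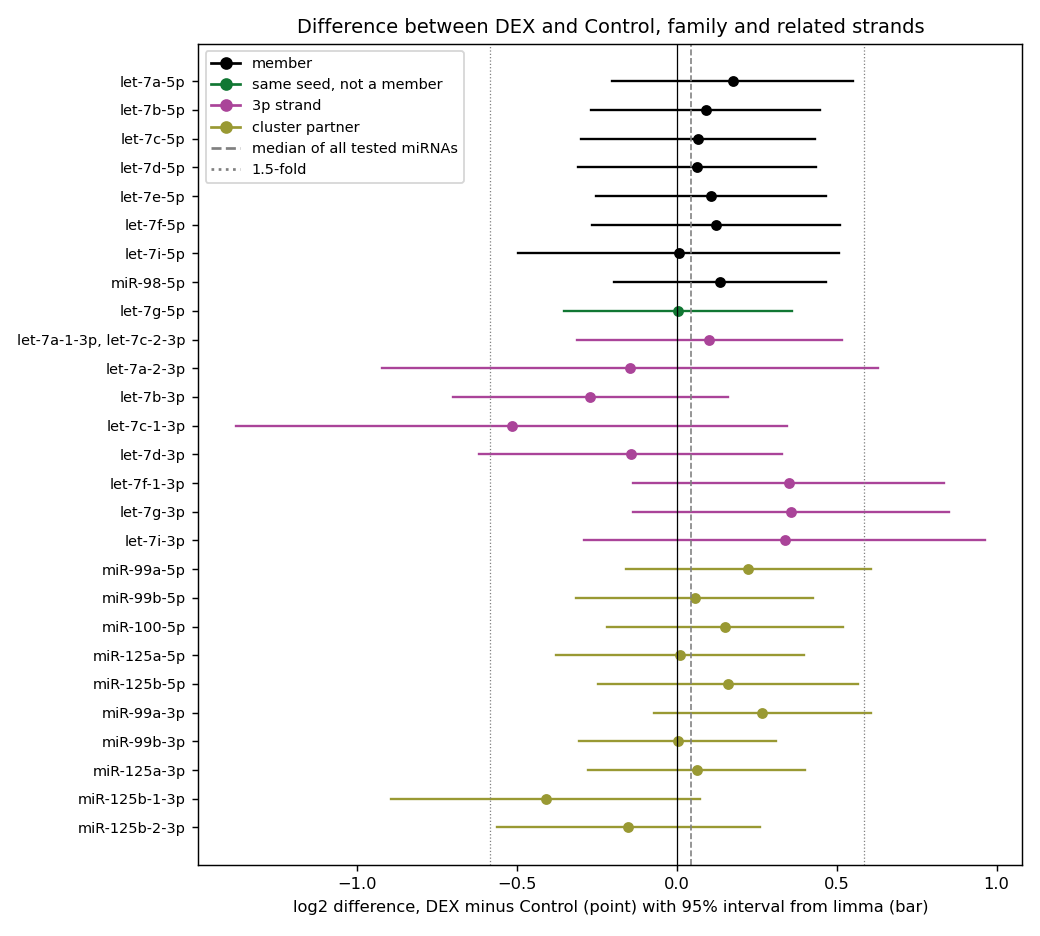
Log2 difference (DEX minus control, points) with 95% intervals from limma (bars) for the 8 members, let-7g-5p, the tested 3p strands and the tested cluster partners. The dashed line is the median of all 503 tested miRNAs (0.044) and dotted lines mark 1.5-fold. Every interval crosses 0, and let-7c-1-3p, undetected on 3 arrays, has the widest interval.

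What the members shared was their profile over the arrays. The mean log2 signal of the 8 ran from 9.83 on Control 3 to 10.51 on Control 5 and DEX 5, a range far wider than the group difference of 0.096. Against the mean of the other 7, the Pearson correlation over the 10 arrays was 0.992 for let-7b-5p, 0.989 for let-7c-5p, 0.988 for let-7f-5p, 0.966 for let-7e-5p, 0.943 for let-7d-5p and 0.942 for let-7a-5p. It was 0.806 for let-7i-5p and 0.469 for miR-98-5p. Taken as deviations from the group means, the last pair of values was 0.830 and 0.439. These correlations are descriptions: the points share arrays, their scaling and, between members, most of their bases.

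**Figure D3:**
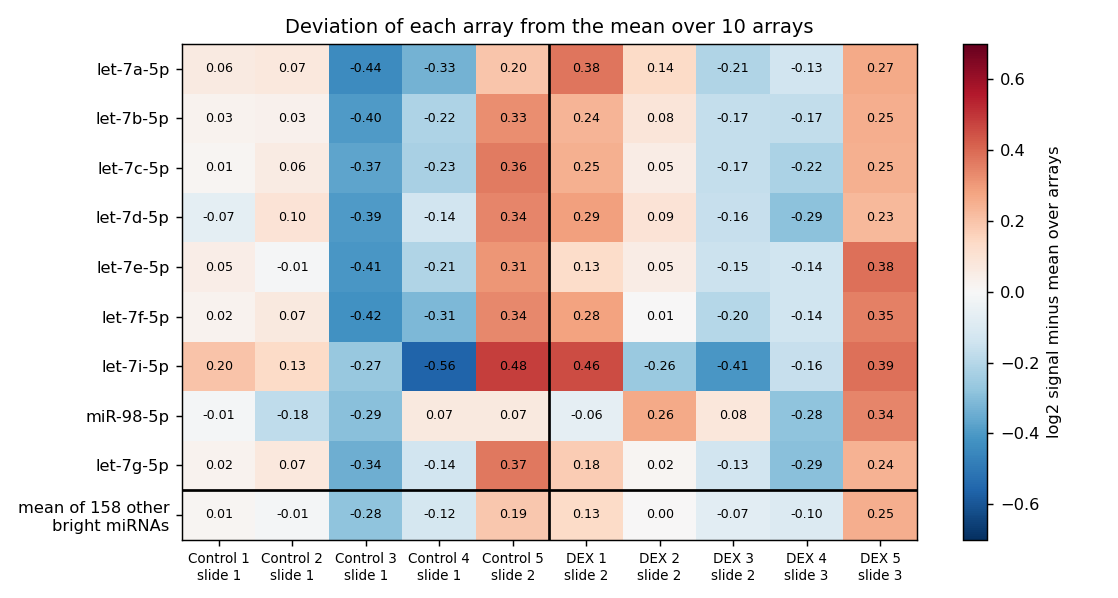
Deviation of each array's log2 signal from the mean over 10 arrays, for the 8 members, let-7g-5p and the mean of the 158 brightest other miRNAs, with control arrays left of the vertical line. Control 3 is below 0 and DEX 5 above 0 in every line. miR-98-5p has the opposite sign to all other members on Control 4, DEX 1 and DEX 3.

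Other bright miRNAs followed the same profile. The mean of the 158 brightest miRNAs without the seed correlated with the family mean at r = 0.976 over the 10 arrays. On the log2 scale, the family mean exceeded this mean by 2.04 ± 0.10 (SD, n = 5) in control hearts vs. 2.05 ± 0.10 in DEX hearts, with arrays between 1.93 and 2.16 in the control group and between 1.95 and 2.16 in the DEX group. The group difference of this value was 0.00959, and the groups overlapped. Of 495 non-members, 48 (9.70%) correlated with the family mean at 0.9 or more, and the median was 0.519. Of the 158 brightest, 43 did, with a median of 0.804. The 3 nearest outside the lists were miR-103-3p (r = 0.986), miR-28-5p (r = 0.979) and miR-107-3p (r = 0.977) over 10 arrays. let-7g-5p stood at 0.961.

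Within the family, the pairs were set against the number of differing bases and the shared loci. The 28 pairs without miR-98-5p had r from 0.767 to 0.994 (median 0.936), and the 8 pairs with it had r from 0.131 to 0.640. The median r was 0.947 over the 4 pairs that differ by 1 base and 0.919 over 10 pairs with 2. It was 0.930 over 11 pairs with 3 and 0.862 over 9 pairs with 4. Without let-7i-5p and miR-98-5p, the pairs with 4 were let-7b-5p with let-7d-5p (0.967), let-7b-5p with let-7g-5p (0.963) and let-7d-5p with let-7g-5p (0.973). All other pairs with 4 held let-7i-5p or miR-98-5p and lay at 0.901 or below. The single pairs with 5 and 6, both with let-7i-5p, had r of 0.808 and 0.767. miR-98-5p differs from let-7a-5p and let-7c-5p by only 2 bases, and its r with them was 0.453 and 0.520. The closest pair was let-7b-5p and let-7c-5p, with r = 0.994 and an SD of 0.026 for their log2 ratio over the 10 arrays. The 5 pairs with genes at one locus had a median r of 0.931, and the 31 pairs without had a median of 0.901. 4 of those 5 lay between 0.904 and 0.994, and let-7f-5p with miR-98-5p, neighbours on chromosome X, had r = 0.469.

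**Figure D4:**
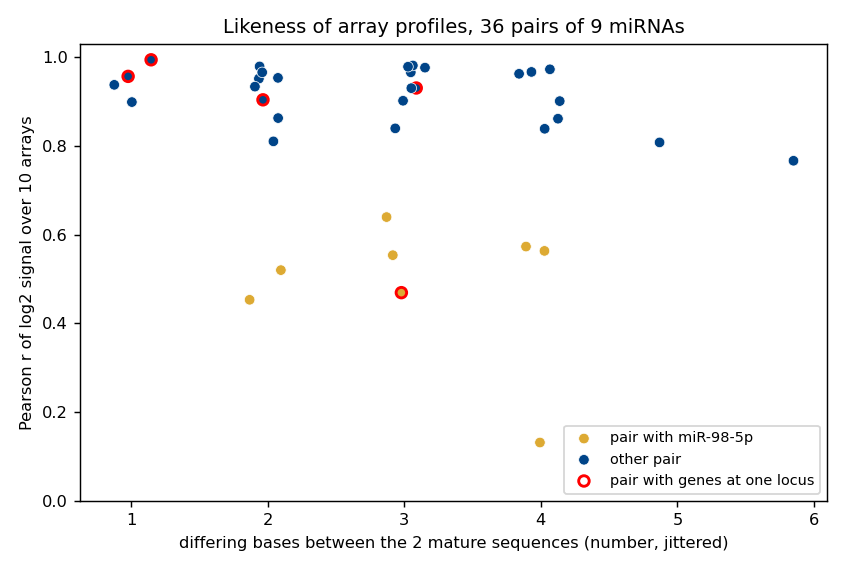
Pearson r of log2 signal over 10 arrays against the number of differing bases (jittered) for the 36 pairs among the 8 members and let-7g-5p. Pairs with miR-98-5p (yellow) lie between 0.131 and 0.640 and all other pairs (blue) at 0.767 or above. Red rings mark pairs with genes at one locus.

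The balance among the members was compared within each array. Each member's log2 signal minus the family mean of the same array differed between the groups by -0.10 (let-7i-5p) to 0.090 (let-7a-5p). For let-7b-5p it was 0.69 ± 0.024 (SD, n = 5) in the control group vs. 0.69 ± 0.038 in the DEX group, and for let-7c-5p 1.05 ± 0.035 vs. 1.02 ± 0.031. For let-7a-5p it was 1.33 ± 0.078 vs. 1.42 ± 0.087, and the groups overlapped (1.25 to 1.42 vs. 1.33 to 1.53). A single scaling factor per array cancels in these values, but quantile normalization would not.

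The 3p strands come from the opposite arm of each precursor and are in most tissues the minor product. The array carried 11 probes for them, 1 of which serves both let-7a-1-3p and let-7c-2-3p because their sequences are identical. 4 of the 11 were detected on all arrays and 8 on at least 5. let-7e-3p and let-7f-2-3p were detected on no array and miR-98-3p on 1. The floor given to undetected values lay between 3.64 and 5.09 by array.

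let-7d-3p, the opposite arm of let-7d, gave 51.4, 65.4, 49.2, 35.6 and 43.9 on the control arrays and 57.6, 43.5, 31.6, 33.7 and 58.9 on the DEX arrays. Its groups overlapped, and its log2 difference was -0.14 (95% interval -0.62 to 0.33). let-7b-3p gave 18.3, 22.3, 17.2, 21 and 14.7 vs. 13.6, 15.1, 11.0, 16.2 and 23.2, with DEX 5 the highest of the 10 and the other DEX arrays low. Its log2 difference was -0.27 (95% interval -0.70 to 0.16), and -0.49 without slide 3. The shared let-7a-1-3p and let-7c-2-3p probe ran from 12.9 to 20.1 vs. 14.2 to 24.2, and let-7i-3p from 4.97 to 7.77 vs. 4.51 to 16.3. The 4 that were at the floor on some arrays were let-7a-2-3p, let-7c-1-3p, let-7f-1-3p and let-7g-3p, and their differences depend on that floor. let-7c-1-3p had the lowest difference of the 8 tested (-0.52, 95% interval -1.38 to 0.35) and let-7g-3p the highest (0.36, 95% interval -0.14 to 0.85). The former was -0.23 without Control 5, -0.31 without DEX 2, -0.79 without Control 2 and -1.51 on slide 2 alone. Of the 8 tested, 4 were higher and 4 lower in the DEX group, where 59.2% of all 503 tested miRNAs were higher. Their median was -0.021. At an adjusted or unadjusted p of 0.05, 0 of the 8 passed, where 0% and 2.98% of all did.

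The ratio of a 5p to a 3p strand on 1 array sets the arms against each other, and a single scaling factor per array cancels in it. Its level carries the affinities of both probes, so each level is given only to compare the groups. For let-7a, let-7c and let-7f the 5p value comes from 2 genes, so those ratios do not belong to 1 precursor. The pairs with let-7a-2-3p, let-7c-1-3p, let-7f-1-3p and let-7g-3p rest on 3p values at the floor on some arrays. Of 12 pairs of the family, counting that of let-7g-5p, 9 had both arms on at least 5 arrays. The model was fitted over all 154 such pairs of the array. At an adjusted p of 0.05, 0 of 9 family pairs passed and 0% of all pairs did, and at an unadjusted p of 0.05, 0 of 9 passed beside 5.84% of all. For let-7d the log2 ratio was 5.53 ± 0.40 (SD, n = 5) in the control group vs. 5.74 ± 0.20 in the DEX group, a difference of 0.21 (95% interval -0.24 to 0.65). For let-7b it was 6.55 ± 0.43 vs. 6.91 ± 0.33, a difference of 0.36 (95% interval -0.15 to 0.87). For let-7i it was 6.60 ± 0.44 vs. 6.27 ± 0.59, a difference of -0.33 (95% interval -0.99 to 0.33). The smallest adjusted p of the 9 was 0.805 by limma. The median difference was 0.073, beside 0.00192 over all 154 pairs.

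miR-99, miR-100 and miR-125 miRNAs lie in the clusters of let-7e, let-7a-2 and let-7c-1, and 11 of their strands were on the array. Of these, 10 were tested, and 8 were higher and 2 lower in the DEX group, where 59.2% of all 503 tested miRNAs were higher. The median difference was 0.059, beside 0.044 over all 503. It was -0.14 with slide as a fixed term, -0.027 without slide 3, -0.098 with no scaling and 0.16 with spike control scaling. At an adjusted or unadjusted p of 0.05, 0 of the 10 passed, where 0% and 2.98% of all did. miR-100-3p was detected on 1 array. miR-99a-5p, the cluster neighbour of let-7c-1, gave 719, 758, 518, 588 and 837 on the control arrays and 1046, 727, 663, 702 and 854 on the DEX arrays, with Control 3 lowest as for most let-7 members. Its log2 difference was 0.22 (95% interval -0.16 to 0.61, adjusted p = 0.905 by limma). miR-100-5p, of the let-7a-2 cluster, gave 700, 694, 486, 575 and 783 vs. 875, 712, 596, 611 and 792, a difference of 0.15 (95% interval -0.22 to 0.52). miR-125b-5p differed by 0.16 (95% interval -0.25 to 0.57) and miR-125a-5p by 0.0094 (95% interval -0.38 to 0.40). miR-99b-5p was fitted without DEX 1, where its spot was marked bad, and differed by 0.056 (95% interval -0.31 to 0.43). The strand with the lowest difference was miR-125b-1-3p, with 22.9, 37.0, 33.9, 24.6 and 16 vs. 22.5, 23.5, 16.9, 19.4 and 15.8. 3 of its 5 control arrays, all on slide 1, lay above all DEX arrays, and the log2 difference was -0.41 (95% interval -0.89 to 0.074, adjusted p = 0.905 by limma). On slide 2 alone the difference of miR-125b-1-3p was 0.37, with Control 5 below DEX 1 to DEX 3.

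**Figure D5:**
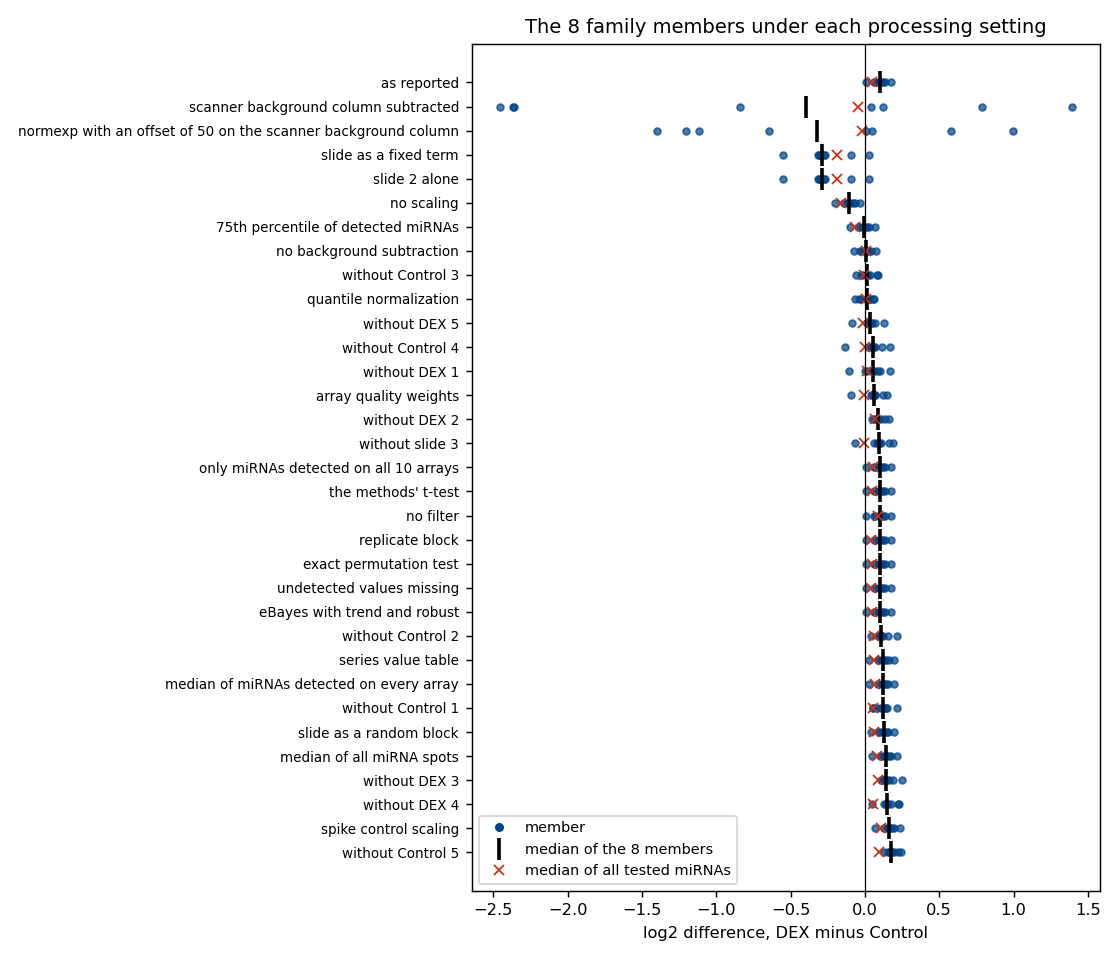
Log2 difference (DEX minus control) of the 8 members (blue points), their median (black bar) and the median of all tested miRNAs (red cross) under each processing setting, one line a setting, sorted by the family median. The family median runs from -0.40 to 0.18. The members spread widely only in the upper lines that use the scanner's background column, which rose with the signal itself.

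miR-3596a to miR-3596d are annotated on the strand opposite to let-7a, let-7d, let-7e and let-7f. These antisense miRNAs fall outside the rule for named miRNAs and were chosen after their values were seen. miR-3596a is the exact complement of let-7a-5p over 22 bases, miR-3596b of let-7d-5p over 20, miR-3596c of let-7e-5p over 21 and miR-3596d of let-7f-5p over 20. They were detected on 4, 7, 10 and 0 arrays in that order. miR-3596c was the only one on every array, at 14.3 to 21.8 in the control group vs. 14 to 19.8 in the DEX group (log2 difference -0.11, 95% interval -0.45 to 0.22). miR-3596a and miR-3596b stayed at 9.42 or below on all arrays.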

How the data were processed

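Left ventricle RNA was labelled with Cy5 and hybridized to 3D-Gene rat miRNA arrays. Per the file headers, the deposited scanner intensity is the spot median at 635 nm, merged from 3 gain settings. The deposited series value table holds the authors' score per miRNA: the blank-subtracted signal scaled to a median of 25 over the 405 miRNAs detected on every array, found from the values (99.8% of 5038 within 0.51 of that rule). The scores are linear and not centred. The miRBase release is not given in the sources used here. No column of another sample was present (0).

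Here the blank mean (trimmed by 5% at each end) was subtracted, each array was scaled to a median of 25 over its detected miRNAs, undetected values were set to the array's lowest detected value, and log2 was taken. limma 3.58.1 (R 4.3.3; lmFit, eBayes, two-sided, Benjamini-Hochberg, threshold 0.05) was fitted over the 503 miRNAs detected on at least 5 arrays. Per the methods, RNA was extracted from the anterior wall of the left ventricle of each rat, with 5 rats a group. 690 of 693 RefSeq mature miRNAs matched a probe.

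Named were the members, the other carrier of the seed, the 3p strands, cluster partners, the 3 nearest profiles and heart markers. The 158 brightest others, with the 9 carriers of the seed, were the upper part of the tested miRNAs by mean signal. The members and lists were chosen with earlier results of these data known. The code was tested on simulated data with known changes, drawn independently and with no slide effect. That test does not measure what these arrays could detect. Alternatives covered background, scaling, filter, floor, model, slide, pairing, test and each array left out, and leaving out slide 3 was chosen after seeing the data.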

Additional observations from a re-analysis of the deposited data

Results flagged for a closer look

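Within the 71 groups of 5 values examined (the members, the related strands and the strand ratios, control and DEX taken apart), 4 held a lone extreme array, where its gap to the nearest of the others, over the group's whole range on the log2 scale, exceeded 0.71. Chance alone gives about 1 in 20 groups, or 3.55 of 71. None of the 4 was the signal of one of the 8 members. let-7f-1-3p stood at 11.7 on DEX 1 against 7.09 to 7.75 on the other DEX arrays (gap over range 0.823), and DEX 1 was the dimmest array. On Control 3, miR-99b-5p stood at 126 against 165 to 178 on the other control arrays (0.784) and miR-125b-5p at 1065 against 1590 to 1862 (0.717), and Control 3 was also the lowest control array for 7 of the 8 members. The ratio of let-7c-5p to let-7c-2-3p was 109 on DEX 5 against 133 to 145 on the other DEX arrays (0.715). Whether the array as a whole sets these values was not tested.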

How the results depend on the processing

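No member passed an adjusted p of 0.05 under any of 31 alternatives (smallest adjusted p = 0.556 by limma), nor did a strand ratio under 21 (0.236 by limma). The methods' t-test and the exact permutation test were among the 31, each run once on the values as reported. The adjusted permutation test could not have passed any member. Its smallest possible p is 0.00794, and only 3 of 503 miRNAs had groups that did not overlap. The number of members past the threshold was 0 with the replicate block, as without it. The family median was 0.0998 in both, which the balanced layout fixes in advance. No pairing by replicate number was seen in the values: same-numbered arrays correlated at -0.080 to 0.11 in their deviations, and 1 of 5 correlated best with its own number. Whether the animals or their handling were paired cannot be told from this. The direction of the differences did change, and the cause was not tested. With no scaling between arrays they were -0.030 (let-7a-5p), -0.11 (let-7b-5p), -0.14 (let-7c-5p and let-7d-5p), -0.097 (let-7e-5p), -0.084 (let-7f-5p), -0.20 (let-7i-5p and let-7g-5p) and -0.069 (miR-98-5p). With the 75th percentile set equal, let-7b-5p gave -0.017, let-7c-5p -0.041, let-7d-5p -0.044, let-7e-5p -0.000383, and let-7i-5p and let-7g-5p -0.10. Without background subtraction let-7b-5p gave -0.0047, let-7c-5p -0.028, let-7d-5p -0.032, let-7i-5p -0.077 and let-7g-5p -0.082. With quantile normalization let-7c-5p gave -0.038, let-7d-5p -0.030, let-7i-5p -0.066 and let-7g-5p -0.15. With array quality weights let-7i-5p gave -0.093 and let-7g-5p -0.023, and without slide 3 let-7i-5p gave -0.067.

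With slide as a fixed term, as on slide 2 alone, the family median moved to -0.29, with -0.094 (let-7a-5p), -0.28 (let-7b-5p), -0.32 (let-7c-5p), -0.27 (let-7d-5p), -0.30 (let-7e-5p), -0.31 (let-7f-5p), -0.55 (let-7i-5p) and -0.35 (let-7g-5p). The scanner's background column rose with the spot signal (r = 0.953 to 0.984), so settings that use it remove signal from bright spots. With normexp on it the family median was -0.32, with -1.12 (let-7b-5p), -1.40 (let-7c-5p), -0.65 (let-7d-5p), -1.20 (let-7i-5p) and -0.070 (let-7g-5p), against 0.999 (let-7a-5p), 0.58 (let-7f-5p), 0.050 (let-7e-5p) and 0.0080 (miR-98-5p). With that column subtracted the family median was -0.40, with -2.37 (let-7b-5p), -2.37 (let-7c-5p), -0.84 (let-7d-5p) and -2.46 (let-7i-5p), against 1.39 (let-7a-5p), 0.79 (let-7f-5p), 0.12 (miR-98-5p), 0.041 (let-7e-5p) and 0.62 (let-7g-5p).

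Leaving out 1 array at a time gave 0.087 to 0.25 for let-7a-5p, 0.0037 to 0.18 for let-7b-5p, 0.020 to 0.20 for let-7e-5p, 0.032 to 0.22 for let-7f-5p, 0.069 to 0.22 for miR-98-5p, -0.017 to 0.17 for let-7c-5p, -0.027 to 0.16 for let-7d-5p, -0.13 to 0.13 for let-7i-5p and -0.081 to 0.096 for let-7g-5p. The family median ran from 0.012 without Control 3 to 0.18 without Control 5, and the members higher in the DEX group numbered 5 of 8 without Control 3, where 48.3% of all tested miRNAs were higher. Of the 27 related strands and strand ratios, 16 changed direction with slide as a fixed term and 5 without slide 3. The number of arrays, the single spot per probe and the slide layout limit every value.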
